A study of Mus musculus with 6 samples.

Results

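Collagen genes were followed by cell type and by genotype in single cells of the mouse aortic root. All features whose symbol has the form Col, a number, the letter a and a number were taken. This gave 44 genes of the 18687 with any UMI in the 6 libraries. A UMI (unique molecular identifier) marks 1 captured mRNA molecule, and levels are given as counts per 1000000 UMIs of the same cells (CPM). Of the 44 genes, 35 reached 5 CPM in at least 1 of 6 main cell classes, which were SMC, fibroblasts, valve interstitial cells or chondrocytes, endothelial cells, macrophages or monocytes, and mesothelial cells. In these classes the other 9 did not: Col6a4, Col7a1, Col10a1, Col17a1, Col20a1, Col22a1, Col24a1, Col26a1 and Col28a1.

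The animals were male mice of 24 weeks, and aortic roots of 4 animals were pooled for each genotype. The first group carried 1 Fbn1 C1041G allele, which models Marfan syndrome, together with floxed Klf4, described as deleted in smooth muscle cells (SMC) on induction. The second carried the same Fbn1 allele with control Klf4, and the third were littermates with control alleles of both genes. They are called Klf4-floxed Marfan, Marfan and control here. After digestion with Liberase and elastase, cells were sorted by tdTomato into an SMC lineage-positive and a lineage-negative fraction, which gives 6 libraries. The Cre driver is not given in the labels used here. Every group is 1 library, so there is no test and no p-value, and intervals cover counting error only, not the spread between animals.

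The libraries held 5167 to 22905 barcodes and 47750360 to 95250397 UMIs, and pairs of them shared 9 to 60 cell barcodes, at most 0.671% of the smaller library. The lineage-positive Marfan library stood apart: barcodes under 1000 UMIs made up 6.94% in the library labelled Klf4-floxed Marfan, 39.0% in Marfan and 7.01% in control, all lineage-positive. Median UMIs per cell of the SMC class were 13056 in the library labelled Klf4-floxed Marfan, 1846 in Marfan and 11382 in control. Klf4 was read as a check of the labels. In SMC it had 108 CPM in the library labelled Klf4-floxed Marfan, 39.4 in Marfan and 23.4 in control, so the library labelled Klf4-floxed Marfan had the highest level and not the lowest. Reads at the 3′ end do not test a deletion elsewhere in the gene. The tdTomato reporter had 226 CPM in the library labelled Klf4-floxed Marfan, 418 in Marfan and 341 in control, in SMC, and 2.17 to 4.61 CPM in fibroblasts.

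Collagens are extracellular proteins built as triple helices of 3 chains, with each chain encoded by its own gene. Fibrillar types such as I, III and V bear tension in the vessel wall. Type IV collagen and the multiplexins XV and XVIII belong to basement membranes, and FACIT types such as XII, XIV and XVI bind to the surface of fibrils. In the healthy aorta SMC make the collagen of the media and fibroblasts that of the adventitia, while collagens II, IX and XI belong to cartilage and to parts of the valve root.

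Cells fell into 29 clusters, found with all collagen genes left out, and clusters were named from marker lists that hold no collagen gene. A class name such as SMC or fibroblast means clusters that are SMC-like or fibroblast-like by these markers. SMC and their subsets were read in the lineage-positive libraries and all other classes in the lineage-negative libraries, so a comparison of SMC with another class is also one of the sort fractions. The SMC class held 5699 cells in the library labelled Klf4-floxed Marfan, 10547 in Marfan and 4967 in control. The fibroblast class held 3410 cells in the library labelled Klf4-floxed Marfan, 2926 in Marfan and 2546 in control.

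The classes differed in the amount and the kind of collagen mRNA. In SMC, the collagen share of all UMIs was 0.430% in the library labelled Klf4-floxed Marfan, 0.441% in Marfan and 0.373% in control. In fibroblasts it was 0.742% in the library labelled Klf4-floxed Marfan, 0.811% in Marfan and 0.725% in control. In the class with valve interstitial or chondrocyte markers it was 0.781% in the library labelled Klf4-floxed Marfan, 0.787% in Marfan and 0.730% in control. Endothelial cells and macrophages or monocytes lay far lower. The endothelial share was 0.0979% in the library labelled Klf4-floxed Marfan, 0.0994% in Marfan and 0.111% in control, and the macrophage share was 0.0253% in the library labelled Klf4-floxed Marfan, 0.0237% in Marfan and 0.020% in control. The order of these classes was the same in each genotype, apart from the first 2 places, which fibroblasts and the valve class held in either order.

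Shares of the collagen UMIs show the kind. In SMC, fibrillar genes supplied 47.4% in the library labelled Klf4-floxed Marfan, 46.0% in Marfan and 47.9% in control. In fibroblasts they supplied 66.4% in the library labelled Klf4-floxed Marfan, 68.2% in Marfan and 67.0% in control. The multiplexins Col15a1 and Col18a1 were a small share in fibroblasts and a large one in SMC. In SMC they supplied 21.96% in the library labelled Klf4-floxed Marfan, 22.9% in Marfan and 20.1% in control, and in fibroblasts 2.44% in the library labelled Klf4-floxed Marfan, 1.85% in Marfan and 2.36% in control. Type IV genes supplied 21.7% in the library labelled Klf4-floxed Marfan, 22.5% in Marfan and 21.9% in control, in SMC. They were the leading group in endothelial cells, with 48.6% in the library labelled Klf4-floxed Marfan, 43.9% in Marfan and 46.7% in control. SMC collagen mRNA was thus nearly even between the fibrillar group and the 2 basement membrane groups together, and fibroblast collagen mRNA was mostly fibrillar.

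Among the 6 main classes, by the mean over the 3 libraries, 16 of the 35 genes were highest in the valve interstitial or chondrocyte class. Fibroblasts held the highest level of 7, SMC of 6, mesothelial cells of 4 and endothelial cells of 2. Clusters outside the main classes were left out of this ranking. The same class was highest in all 3 genotypes for 13, 6, 5, 2 and 2 of these. The 9 genes under 5 CPM were at most 4.42 CPM in any of the 6 main classes, and 2 of them, Col28a1 and Col20a1, passed 5 CPM in at least 1 library of a small cluster described below.

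**Figure D1:**
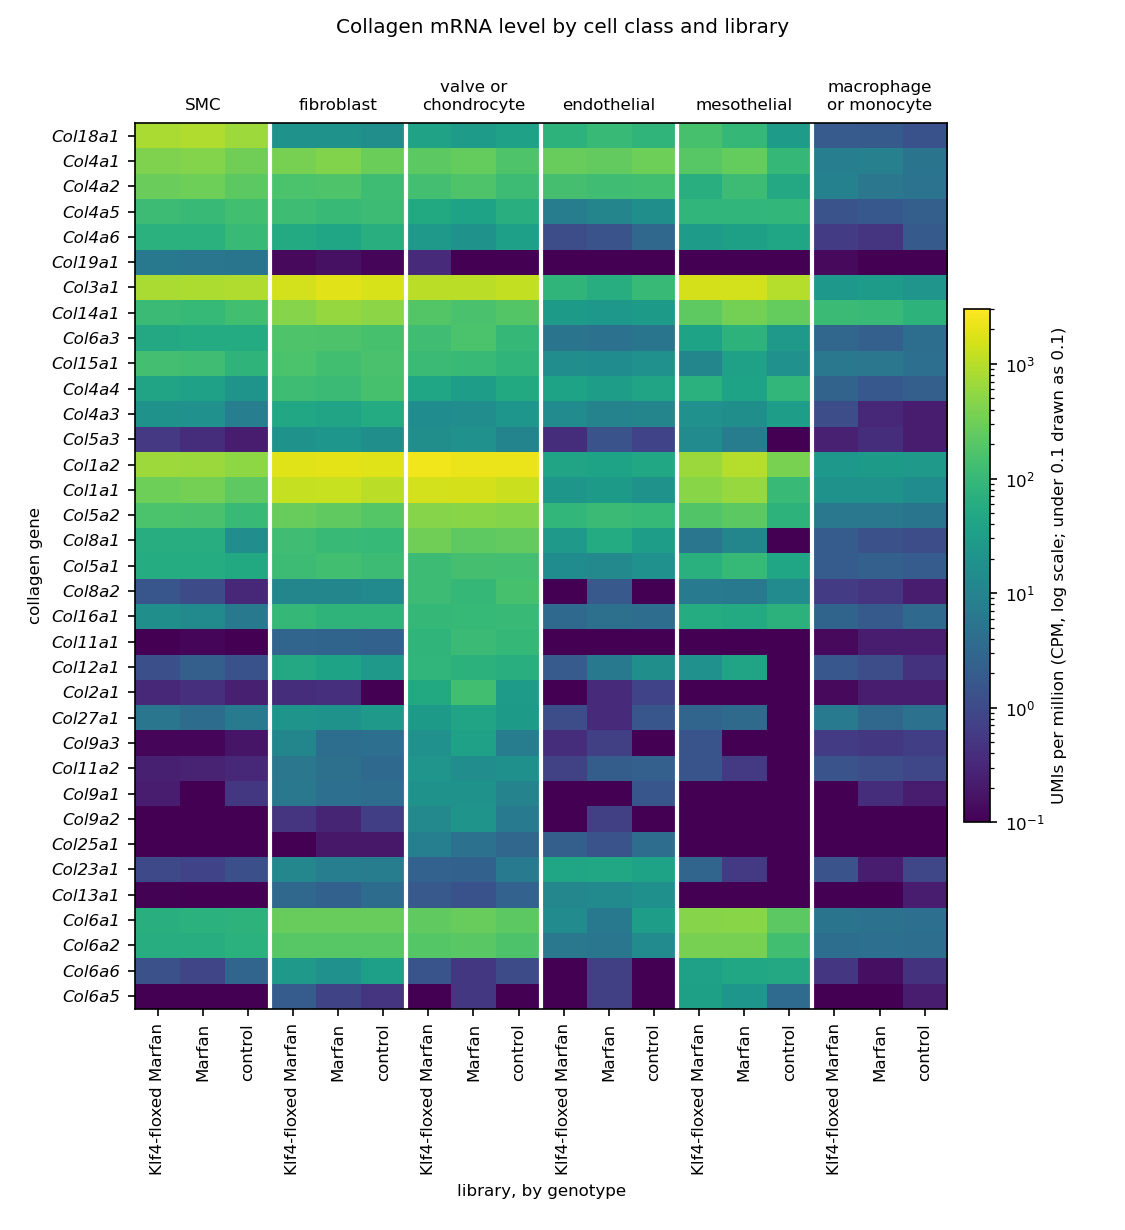
Level of the 35 collagen genes that reach 5 CPM in a main class, in counts per 1000000 UMIs on a log colour scale, for 6 cell classes (column blocks) and 3 genotypes (columns within a block). Each cell is 1 library. Col18a1 is brightest in SMC, Col1a1 and Col1a2 in the valve interstitial or chondrocyte class, and Col2a1, Col9a2 and Col11a1 are dark outside that class.

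Among fibrillar genes, the 2 chains of collagen I and the single chain of collagen III were the most abundant. In the valve class Col1a2 had 2423 CPM in the library labelled Klf4-floxed Marfan, 2257 in Marfan and 2179 in control. In fibroblasts it had 1792 CPM in the library labelled Klf4-floxed Marfan, 1979 in Marfan and 1815 in control, and in SMC 676 CPM in the library labelled Klf4-floxed Marfan, 630.1 in Marfan and 516 in control. Col1a1, the partner chain, followed the same order of classes. In the valve class it had 1486 CPM in the library labelled Klf4-floxed Marfan, 1559.7 in Marfan and 1324 in control, and in fibroblasts 1198 CPM in the library labelled Klf4-floxed Marfan, 1247 in Marfan and 1036 in control. In SMC it had 308 CPM in the library labelled Klf4-floxed Marfan, 345 in Marfan and 228 in control. Col3a1 had another order, as it was higher in fibroblasts, with 1491 CPM in the library labelled Klf4-floxed Marfan, 1873 in Marfan and 1639 in control, than in the valve class, with 1027 CPM in the library labelled Klf4-floxed Marfan, 1033 in Marfan and 1157 in control. In mesothelial cells Col3a1 had 1554 CPM in the library labelled Klf4-floxed Marfan, 1473 in Marfan and 950.1 in control, which exceeded fibroblasts in the library labelled Klf4-floxed Marfan only. In SMC, Col3a1 had 824 CPM in the library labelled Klf4-floxed Marfan, 835 in Marfan and 874 in control, more than either collagen I chain. Reads come from the 3′ end of each mRNA, so no value was divided by gene length.

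Col5a1 and Col5a2 encode chains of collagen V, which starts the assembly of collagen I fibrils. In the valve class Col5a2 had 456 CPM in the library labelled Klf4-floxed Marfan, 485 in Marfan and 439.9 in control, and in SMC 161 CPM in the library labelled Klf4-floxed Marfan, 156 in Marfan and 107 in control. Its partner Col5a1 had 115 CPM in the library labelled Klf4-floxed Marfan, 145 in Marfan and 139 in control, in the valve class, and in SMC 60.0 CPM in the library labelled Klf4-floxed Marfan, 58.9 in Marfan and 52.7 in control. Both were thus lower in SMC than in the valve class in each genotype. Col27a1, a minor fibrillar chain, had in the valve class 27.4 CPM in the library labelled Klf4-floxed Marfan, 40.8 in Marfan and 27.3 in control.

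Among the main classes, SMC held the highest level of the parent chain of endostatin and of the common type IV chains. Cluster 14, which carries no class name and is described below, had more Col4a1 than the SMC class in each genotype. Col18a1, whose product is cleaved to release endostatin, had in SMC 803 CPM in the library labelled Klf4-floxed Marfan, 879 in Marfan and 666 in control. In fibroblasts it had 19.3 CPM in the library labelled Klf4-floxed Marfan, 19.4 in Marfan and 16.2 in control, so the SMC and fibroblast levels were far apart in each genotype. The last 1000 bases of Col18a1 overlap Slc19a1, and the strand setting of the counting is not given in the sources used here. Col4a1, a chain of every basement membrane, had in SMC 402 CPM in the library labelled Klf4-floxed Marfan, 445 in Marfan and 325 in control, and in fibroblasts 357 CPM in the library labelled Klf4-floxed Marfan, 431 in Marfan and 296 in control. Its partner Col4a2 had in SMC 283 CPM in the library labelled Klf4-floxed Marfan, 314 in Marfan and 221 in control, and in fibroblasts 159 CPM in the library labelled Klf4-floxed Marfan, 176 in Marfan and 120.3 in control. Col4a2 was higher in SMC in each genotype, while Col4a1 was close in both classes.

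The other 4 type IV genes encode chains of more restricted basement membranes. Col4a5 had in SMC 116 CPM in the library labelled Klf4-floxed Marfan, 107 in Marfan and 135 in control, and in fibroblasts 120.1 CPM in the library labelled Klf4-floxed Marfan, 102 in Marfan and 117 in control. Col4a6 had in SMC 73.0 CPM in the library labelled Klf4-floxed Marfan, 72.7 in Marfan and 107 in control, and in fibroblasts 54.7 CPM in the library labelled Klf4-floxed Marfan, 45.3 in Marfan and 66.5 in control. Col4a6 was thus higher in SMC in each genotype. Col4a5 was close in both classes, with fibroblasts above SMC in the library labelled Klf4-floxed Marfan. Col4a3 and Col4a4 were higher in fibroblasts in each genotype. Col4a4 had in fibroblasts 121 CPM in the library labelled Klf4-floxed Marfan, 111 in Marfan and 150.01 in control, and in SMC 41.7 CPM in the library labelled Klf4-floxed Marfan, 36.3 in Marfan and 21.0 in control. Col19a1, a rare FACIT chain, was low and found almost only in SMC among the main classes, with 6.57 CPM in the library labelled Klf4-floxed Marfan, 5.70 in Marfan and 5.43 in control, and at most 0.361 CPM in any of the 5 other main classes.

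Collagen VI genes encode beaded filaments around cells, and 4 of them peaked in mesothelial cells, the lining of the outer surface. That class was small, with 62 cells in the library labelled Klf4-floxed Marfan, 120 in Marfan and 18 in control. Col6a1 had 455 CPM in the library labelled Klf4-floxed Marfan, 481 in Marfan and 225 in control, and Col6a2 had 359 CPM in the library labelled Klf4-floxed Marfan, 362 in Marfan and 134 in control, in mesothelial cells. Col6a5 had 34.6 CPM in the library labelled Klf4-floxed Marfan, 22.3 in Marfan and 3.63 in control, and Col6a6 had 36.0 CPM in the library labelled Klf4-floxed Marfan, 47.5 in Marfan and 50.8 in control. In fibroblasts, a far larger class, Col6a1 had 278 CPM in the library labelled Klf4-floxed Marfan, 275 in Marfan and 269.6 in control, and Col6a2 had 202 CPM in the library labelled Klf4-floxed Marfan, 203 in Marfan and 204 in control. With so few control mesothelial cells, the genotypes are not compared in that class.

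The ratio of partner chains differed between classes. Col3a1 over Col1a1 UMIs in SMC was 2.67 in the library labelled Klf4-floxed Marfan, 2.42 in Marfan and 3.83 in control, and in fibroblasts 1.24 in the library labelled Klf4-floxed Marfan, 1.502 in Marfan and 1.58 in control. In Marfan SMC the 95% counting interval of this ratio was 2.39 to 2.46, and in control SMC it was 3.76 to 3.91. Col4a1 over Col4a2 in SMC was 1.42 in the library labelled Klf4-floxed Marfan, 1.42 in Marfan and 1.47 in control, and in fibroblasts 2.24 in the library labelled Klf4-floxed Marfan, 2.45 in Marfan and 2.46 in control. These 2 genes start head to head, with annotated starts that overlap by 22 bases, and still had another ratio in each class. Col1a1 over Col1a2 in SMC was 0.456 in the library labelled Klf4-floxed Marfan, 0.547 in Marfan and 0.443 in control, and in fibroblasts 0.669 in the library labelled Klf4-floxed Marfan, 0.630 in Marfan and 0.571 in control. Capture at the 3′ end can differ between genes, so these ratios compare classes and are not the make-up of the protein.

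In SMC, Marfan against control asks how collagen mRNA goes with the Fbn1 allele. Of the 21 collagen genes with at least 5 CPM in either library, 6 were at least 1.5-fold higher in Marfan SMC and 1 was at least 1.5-fold lower. Among all 9395 genes so measured, 3.7% were higher and 2.62% lower by that measure. The median log2 ratio was 0.29 over the 21 collagen genes and -0.07 over all genes. The gap was uneven: Col8a1, Col4a3 and Col16a1 were more than 2-fold higher, while Col3a1 differed little. It also differed between SMC clusters, as given below.

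Col8a1 encodes a chain of collagen VIII, a short-chain network collagen known from remodelling arteries. In SMC it had 61.7 CPM in the library labelled Klf4-floxed Marfan, 61.9 in Marfan and 15.4 in control. Both Marfan libraries lay far above control, and the Marfan over control log2 ratio was 2.01 (1.90 to 2.12), with its 95% counting interval in brackets as for the ratios below. With each cell thinned to 2000 UMIs, the share of SMC with a Col8a1 UMI was 9.73% in the library labelled Klf4-floxed Marfan, 9.25% in Marfan and 2.66% in control. Unthinned, the shares were 32.4% in the library labelled Klf4-floxed Marfan, 16.3% in Marfan and 10.4% in control. Cells too shallow for thinning numbered 138 in the library labelled Klf4-floxed Marfan, 5629 in Marfan and 119 in control. Among macrophages or monocytes the thinned share was 0.487% in the library labelled Klf4-floxed Marfan, 0.412% in Marfan and 0.787% in control. The median UMIs per cell of that class were 8669.5 in the library labelled Klf4-floxed Marfan, 9627 in Marfan and 10474 in control.

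Col16a1, a FACIT chain, had in SMC 16.7 CPM in the library labelled Klf4-floxed Marfan, 13.5 in Marfan and 6.48 in control, with a Marfan over control log2 ratio of 1.05 (0.87 to 1.24). Col4a3 and Col4a4 encode chains that assemble with that of Col4a5 in specialised basement membranes. Col4a3 had 19.4 CPM in the library labelled Klf4-floxed Marfan, 18.2 in Marfan and 8.203 in control, with a log2 ratio of 1.15 (0.99 to 1.31). Col4a4, at the levels given above, had one of 0.79 (0.69 to 0.90). For each of these genes both Marfan libraries lay above control. Col4a5 had the other sign, at -0.33 (-0.38 to -0.28), and so did Col4a6, at -0.55 (-0.61 to -0.50), which is inside 1.5-fold. Col4a1 and Col4a2 had ratios of 0.45 and 0.51, also inside 1.5-fold. Of the 6 type IV genes, 4 thus had positive and 2 negative ratios.

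Col15a1, a multiplexin chain, had 139.9 CPM in the library labelled Klf4-floxed Marfan, 129 in Marfan and 82.8 in control, with a log2 ratio of 0.64 (0.59 to 0.70). Without cluster 4, described below, this was 0.47. Col1a1 had a ratio of 0.59 (0.56 to 0.63), which came to 0.51 without the shallowest SMC cluster. That cluster, led by Igfbp2 and Sorbs2, held 194 cells of the library labelled Klf4-floxed Marfan, 5805 Marfan cells and 69 control cells. Without it 5 genes were at least 1.5-fold higher. Col5a2 had a ratio of 0.54 (0.49 to 0.58), Col18a1 one of 0.40 (0.38 to 0.42), and Col3a1 one of -0.07 (-0.08 to -0.05). Col14a1, a FACIT chain, had 113 CPM in the library labelled Klf4-floxed Marfan, 98.6 in Marfan and 131 in control, a ratio of -0.41 (-0.46 to -0.36). The gene at least 1.5-fold lower was Col27a1, with 5.82 CPM in the library labelled Klf4-floxed Marfan, 3.75 in Marfan and 6.76 in control, a ratio of -0.85 (-1.10 to -0.61).

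**Figure D2:**
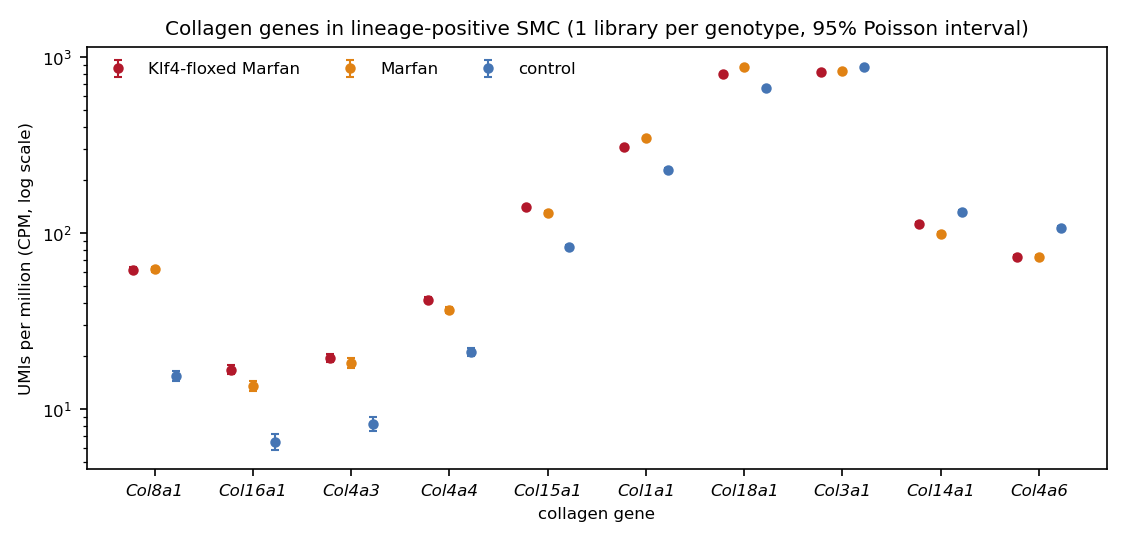
Level of 10 collagen genes in lineage-positive SMC, in counts per 1000000 UMIs on a log axis, for the libraries labelled Klf4-floxed Marfan (red), Marfan (orange) and control (blue). Each point is 1 library with its exact 95% Poisson interval, often smaller than the point. Col8a1, Col16a1, Col4a3, Col4a4, Col15a1 and Col1a1 lie above control in both Marfan libraries, while Col14a1 and Col4a6 lie below it.

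The comparison of the library labelled Klf4-floxed Marfan with Marfan asks whether collagen mRNA of SMC goes with the Klf4 allele. Of 21 collagen genes measured, 1 was at least 1.5-fold higher and 0 were lower, against 0.409% higher and 0.582% lower among all 9284 genes. The higher gene was Col27a1, with a log2 ratio of 0.63 (0.40 to 0.87), near the lowest level measured. Their median log2 ratio was 0.03 over these collagen genes and 0.01 over all genes. Among the genes higher in Marfan than in control, the ratios were -0.00 (-0.07 to 0.06) for Col8a1, 0.09 (-0.02 to 0.21) for Col4a3 and 0.31 (0.18 to 0.44) for Col16a1. They were 0.20 (0.12 to 0.28) for Col4a4, 0.11 (0.07 to 0.16) for Col15a1 and -0.16 (-0.19 to -0.13) for Col1a1. These counting intervals stay inside 1.5-fold for these 2 libraries and do not cover the spread between animals. Klf4 mRNA itself was higher in the library labelled Klf4-floxed Marfan, and whether the gene was deleted in these cells was not tested.

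Set against control, the SMC class in the library labelled Klf4-floxed Marfan had 6 of 21 collagen genes at least 1.5-fold higher and 0 lower, against 3.64% and 2.3% of 9399 genes. As a median, the log2 ratio was 0.27 over these collagen genes and -0.07 over all genes. The log2 ratios of the higher genes were 2.00 (1.90 to 2.11) for Col8a1, 1.36 (1.19 to 1.54) for Col16a1, 1.24 (1.09 to 1.40) for Col4a3 and 0.99 (0.89 to 1.09) for Col4a4. They were 0.76 (0.71 to 0.81) for Col15a1 and 0.59 (0.54 to 0.63) for Col5a2. This comparison does not use the shallow lineage-positive Marfan library. It shares its control library with the comparison of Marfan and control, so the 2 are not independent.

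**Figure D3:**
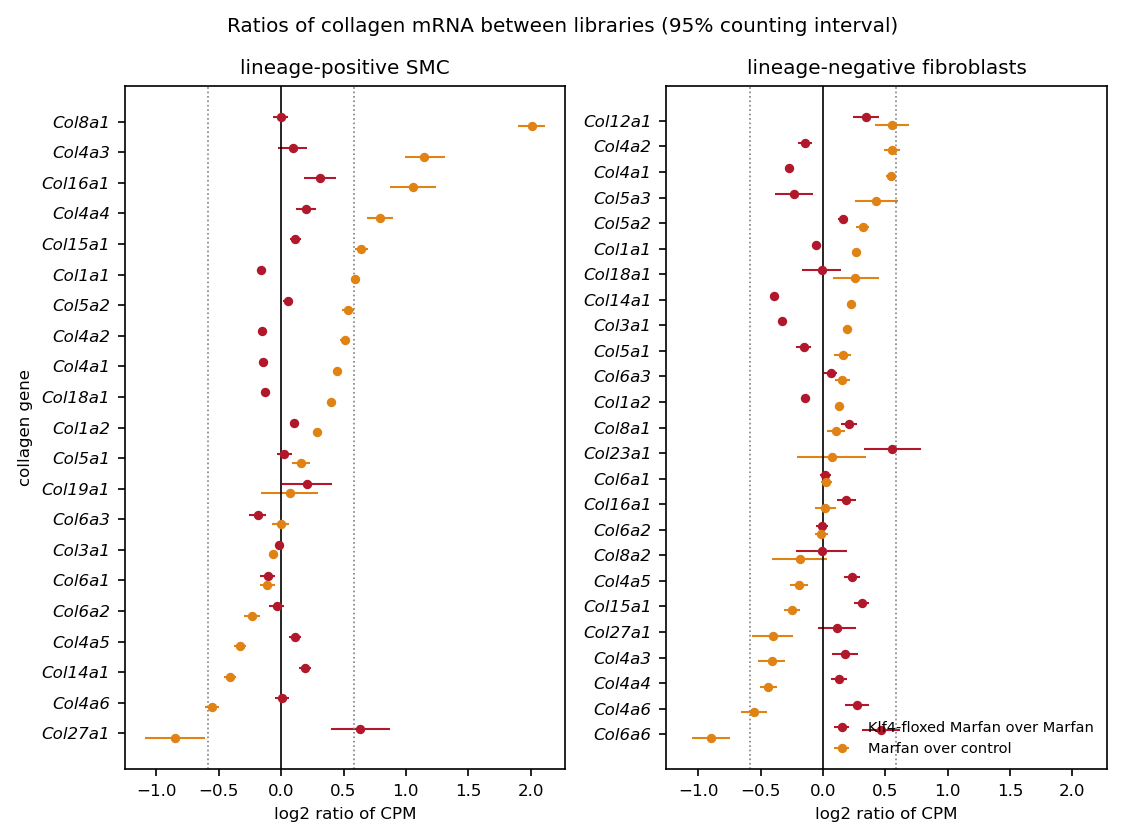
Log2 ratio of CPM for each measured collagen gene in lineage-positive SMC (left) and lineage-negative fibroblasts (right), with 95% counting intervals. Red points are the library labelled Klf4-floxed Marfan over Marfan, orange points are Marfan over control, and dotted lines mark 1.5-fold. In SMC the orange points run from -0.85 (Col27a1) to 2.01 (Col8a1), and the red points lie inside 1.5-fold except for Col27a1.

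Of the 7 clusters in the SMC class, 2 were named modulated SMC, a term for SMC that have lost contractile genes and gained matrix genes. Cluster 8 was led by Timp4, Fetub, Nrgn, Mia and Esm1 and also by Tnfrsf11b and Fn1. Cluster 25, led by the immune genes Iigp1, Lcn2 and Gbp2, added 9 cells of the library labelled Klf4-floxed Marfan, 49 Marfan cells and 7 control cells. Together they held 1030 cells in the library labelled Klf4-floxed Marfan, 945 in Marfan and 91 in control. In the library labelled Klf4-floxed Marfan, 8 of 22 measured collagen genes were at least 1.5-fold higher in modulated SMC than in the other SMC clusters, against 11.3% of all genes. In the Marfan library 8 of 21 were higher, against 12.2%, and in control 9 of 22, against 19.6%. Lower were 5 collagen genes in the library labelled Klf4-floxed Marfan, against 9.95% of all genes, 4 in Marfan, against 8.91%, and 2 in control, against 10.8%. The median log2 ratio was -0.10 over these collagen genes and -0.06 over all genes in the library labelled Klf4-floxed Marfan. In Marfan it was -0.11 over these collagen genes and -0.02 over all genes, and in control 0.39 over these collagen genes and 0.09 over all genes. In all 3 libraries 7 genes were higher (Col1a1, Col1a2, Col4a3, Col4a4, Col5a2, Col8a1 and Col16a1) and 2 were lower (Col18a1 and Col19a1).

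Col8a1 had in modulated SMC 154 CPM in the library labelled Klf4-floxed Marfan, 178 in Marfan and 78.1 in control. In the other SMC clusters it had 37.6 CPM in the library labelled Klf4-floxed Marfan, 35.5 in Marfan and 14.2 in control. The log2 ratios of modulated over other SMC were 2.03 (1.95 to 2.12) in the library labelled Klf4-floxed Marfan, 2.32 (2.23 to 2.42) in Marfan and 2.46 (2.11 to 2.79) in control. Modulated SMC thus lay above the other SMC in each genotype, and both states were higher in the Marfan libraries than in control. Col4a4 had in modulated SMC 95.3 CPM in the library labelled Klf4-floxed Marfan, 84.6 in Marfan and 65.6 in control, and in the other SMC 27.8 CPM in the library labelled Klf4-floxed Marfan, 25.3 in Marfan and 20.1 in control. Col4a3 had in modulated SMC 58.4 CPM in the library labelled Klf4-floxed Marfan, 49.1 in Marfan and 42.4 in control, and in the other SMC 9.22 CPM in the library labelled Klf4-floxed Marfan, 11.1 in Marfan and 7.55 in control. In each library the Col4a3 level of modulated SMC was closer to that of fibroblasts than to that of the other SMC. Fibroblasts had 47.3 CPM in the library labelled Klf4-floxed Marfan, 41.9 in Marfan and 55.7 in control.

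Col16a1 had in modulated SMC 46.8 CPM in the library labelled Klf4-floxed Marfan, 40.2 in Marfan and 20.3 in control, and in the other SMC 8.80 CPM in the library labelled Klf4-floxed Marfan, 7.33 in Marfan and 6.21 in control. Its control value in modulated SMC rests on 21 UMIs, and its log2 ratio in control was 1.70 (0.99 to 2.34). Col1a1 had in modulated SMC 545 CPM in the library labelled Klf4-floxed Marfan, 517 in Marfan and 451 in control, and in the other SMC 246 CPM in the library labelled Klf4-floxed Marfan, 305 in Marfan and 224 in control. Col1a2 had in modulated SMC 1123 CPM in the library labelled Klf4-floxed Marfan, 998 in Marfan and 810.3 in control, and in the other SMC 559.6 CPM in the library labelled Klf4-floxed Marfan, 546 in Marfan and 510.04 in control. Col5a2 had in modulated SMC 245 CPM in the library labelled Klf4-floxed Marfan, 227 in Marfan and 215 in control, and in the other SMC 139 CPM in the library labelled Klf4-floxed Marfan, 139 in Marfan and 105 in control. The collagen I and V chains thus differed less between the states than Col8a1, Col4a3, Col4a4 and Col16a1 did in both Marfan libraries. Col8a2, the second chain of collagen VIII, had in modulated SMC 93 UMIs in the library labelled Klf4-floxed Marfan, 48 in Marfan and 1 in control, and in the more numerous other SMC 25 UMIs in the library labelled Klf4-floxed Marfan, 16 in Marfan and 17 in control.

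Other genes were lower in modulated SMC. Col18a1 had in modulated SMC 310.4 CPM in the library labelled Klf4-floxed Marfan, 374 in Marfan and 357 in control, and in the other SMC 932 CPM in the library labelled Klf4-floxed Marfan, 994 in Marfan and 672 in control. Its log2 ratios were -1.59 (-1.63 to -1.54) in the library labelled Klf4-floxed Marfan, -1.41 (-1.46 to -1.37) in Marfan and -0.91 (-1.06 to -0.76) in control. Col19a1 had in modulated SMC 11 UMIs in the library labelled Klf4-floxed Marfan, 6 in Marfan and 1 in control, and in the other SMC 485 UMIs in the library labelled Klf4-floxed Marfan, 334 in Marfan and 301 in control. Col14a1 had in modulated SMC 31.0 CPM in the library labelled Klf4-floxed Marfan, 39.6 in Marfan and 119.6 in control, and in the other SMC 134 CPM in the library labelled Klf4-floxed Marfan, 112 in Marfan and 131 in control, so it was lower in the modulated SMC of both Marfan libraries and close in control. In the library labelled Klf4-floxed Marfan, Col6a3, a collagen VI chain, had 31.7 CPM in modulated SMC and 54.1 CPM in the other SMC. In the Marfan library Col4a6 had 49.7 CPM in modulated SMC and 77.9 CPM in the other SMC. Col3a1 stayed inside 1.5-fold in each library, with 733 CPM in the library labelled Klf4-floxed Marfan, 867 in Marfan and 1043 in control, in modulated SMC.

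In control modulated SMC, Col2a1 had 14 UMIs, all in 1.10% of the 91 cells, which is 1 cell, against 0 UMIs in the other SMC. Fibroblast markers, 10 listed, summed in modulated SMC to 1108 CPM in the library labelled Klf4-floxed Marfan, 1433 in Marfan and 2567 in control, and in the other SMC to 681 CPM in the library labelled Klf4-floxed Marfan, 774 in Marfan and 847 in control. In fibroblasts they summed to 27148 CPM in the library labelled Klf4-floxed Marfan, 27674 in Marfan and 32924 in control. The part of these markers in the collagen values was not tested. Clusters were made from other genes of the same cells, so these ratios describe the clusters and are no test.

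**Figure D4:**
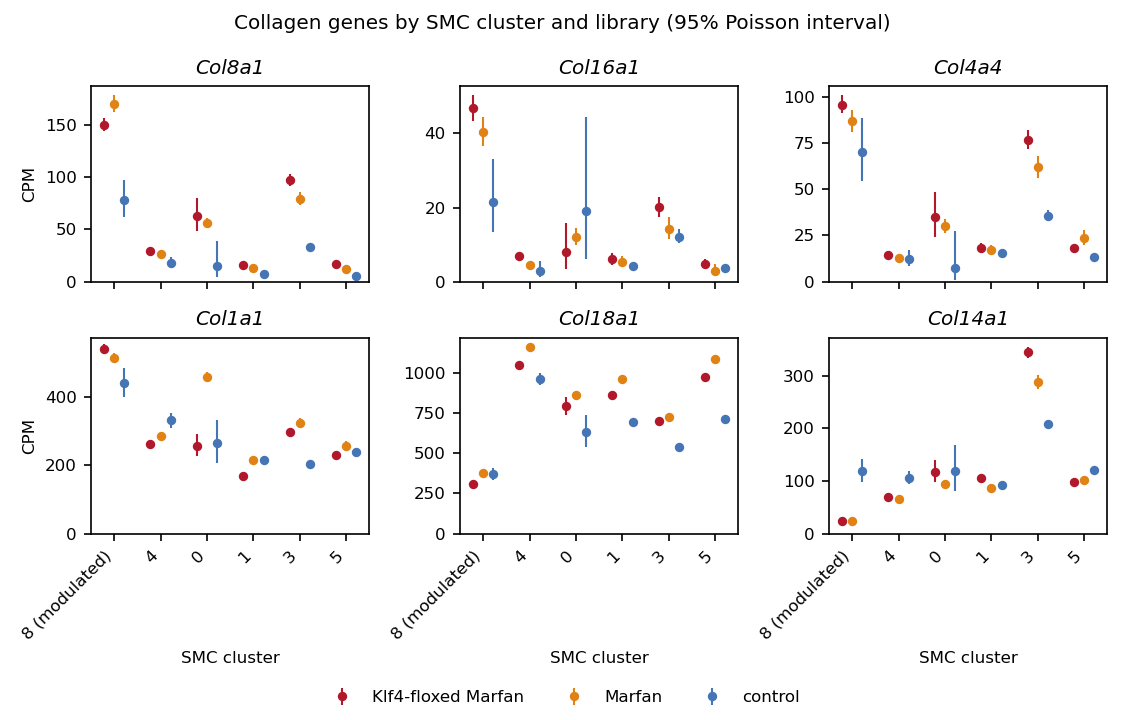
Level of 6 collagen genes in SMC clusters 8, 4, 0, 1, 3 and 5, in counts per 1000000 UMIs from 0, for the libraries labelled Klf4-floxed Marfan (red), Marfan (orange) and control (blue), with exact 95% Poisson intervals. Cluster 8 is the larger modulated SMC cluster and cluster 0 the shallowest. Col8a1, Col16a1, Col4a4 and Col1a1 are highest in cluster 8 in both Marfan libraries, Col18a1 is lowest there in all 3 libraries, and Col14a1 is highest in cluster 3.

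Sequences just upstream of genes that were higher in modulated SMC are shown so that they can be compared. RefSeq promoter windows of build GRCm38.p6 were matched for 35 of the 44 genes. Printed are the 250 bases before the start of Col8a1 and of Col16a1, and the 71 bases between the starts of Col4a4 and Col4a3, which share that stretch head to head. Bases run 5′ to 3′ on the strand of the gene named first, and capitals mark CACCC or its reverse complement GGGTG, a short motif bound by KLF factors.
Col8a1, chr16:57754738-57754987, minus strand: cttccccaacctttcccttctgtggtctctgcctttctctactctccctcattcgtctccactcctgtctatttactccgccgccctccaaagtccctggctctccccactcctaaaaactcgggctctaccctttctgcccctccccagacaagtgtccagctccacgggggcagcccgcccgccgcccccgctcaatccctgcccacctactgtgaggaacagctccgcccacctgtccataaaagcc
Col16a1, chr4:130047590-130047839, plus strand: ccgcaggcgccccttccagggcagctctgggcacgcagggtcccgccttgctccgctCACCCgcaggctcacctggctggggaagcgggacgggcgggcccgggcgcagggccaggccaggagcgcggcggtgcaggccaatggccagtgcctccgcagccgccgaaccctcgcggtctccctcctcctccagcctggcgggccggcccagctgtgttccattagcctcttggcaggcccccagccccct
Col4a4 to Col4a3, chr1:82586850-82586920, minus strand: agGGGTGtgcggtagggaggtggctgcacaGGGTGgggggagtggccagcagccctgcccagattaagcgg
The Col8a1 window held 0 matches, the Col16a1 window 1, and the 71 bases between Col4a4 and Col4a3 held 2. Of 32851 RefSeq windows, 52.0% of 250-base windows and 20.3% of the 71 bases next to the start held the motif on either strand. TATAAA, found in 12.4% of 250-base windows, was in none of the 3 sequences. CCAAT, found in 33.8% of them, was in that of Col16a1. G and C made up 60.8%, 75.6% and 69.0% of the 3 sequences, against a mean of 53.2% over 250-base windows and 56.1% over 71-base windows. A match describes the letters of the window and is no evidence of binding.

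Single SMC clusters kept the difference in Col8a1 between both Marfan libraries and control. In cluster 8 it had 150.1 CPM in the library labelled Klf4-floxed Marfan, 170.4 in Marfan and 78.1 in control. In cluster 3, led by Tnnt2, Psd and Corin, it had 97.3 CPM in the library labelled Klf4-floxed Marfan, 79.5 in Marfan and 33.3 in control. In cluster 1, led by 2210407C18Rik and Kcnab1, it had 15.6 CPM in the library labelled Klf4-floxed Marfan, 13.6 in Marfan and 7.06 in control. In cluster 5, led by Mylk4 and Susd5, it had 16.9 CPM in the library labelled Klf4-floxed Marfan, 11.9 in Marfan and 5.63 in control. In cluster 4, led by Igfbp2, Ptprz1 and P2rx1, it had 29.2 CPM in the library labelled Klf4-floxed Marfan, 27.0 in Marfan and 17.9 in control. Control was lowest in each of these, and Marfan over control was smallest in cluster 4.

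Over collagen genes with at least 20 CPM in either library, the median Marfan over control log2 ratio differed between SMC clusters. It was -0.01 in cluster 1, -0.02 in cluster 5, -0.21 in cluster 4 and 0.10 in cluster 8. Clusters 3 and 0, the latter the shallowest, had 0.38 and 0.68. The median over all genes is not given here by cluster. Single genes other than Col8a1 differed between clusters as well. Col4a4 had in cluster 3 76.5 CPM in the library labelled Klf4-floxed Marfan, 61.9 in Marfan and 35.8 in control, and in cluster 1 18.1 CPM in the library labelled Klf4-floxed Marfan, 16.96 in Marfan and 15.7 in control. In cluster 4 it had 14.2 CPM in the library labelled Klf4-floxed Marfan, 12.8 in Marfan and 12.2 in control, so that the genotypes were close there. Col1a1 had in cluster 4 263 CPM in the library labelled Klf4-floxed Marfan, 284 in Marfan and 331 in control, with control highest, and in cluster 3 298 CPM in the library labelled Klf4-floxed Marfan, 323 in Marfan and 203 in control, with control lowest. Col14a1 had in cluster 3 345 CPM in the library labelled Klf4-floxed Marfan, 288 in Marfan and 208 in control, above its levels in the other SMC clusters in each library. Cluster 4 held 1654 lineage-positive cells of the library labelled Klf4-floxed Marfan, 1376 Marfan cells and 202 control cells, and cluster 1 held 896 cells of the library labelled Klf4-floxed Marfan, 993 Marfan cells and 2116 control cells. Fewer cells of a kind and less mRNA per cell cannot be told apart in the totals of the class.

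Fewer collagen genes passed 1.5-fold between Marfan and control fibroblasts. In Marfan fibroblasts against control, 0 of 25 collagen genes were at least 1.5-fold higher and 1 was lower, against 2.09% and 2.57% of all 10161 genes. Their median log2 ratio was 0.10 over these collagen genes and -0.03 over all genes. The lower gene was Col6a6, with 25.4 CPM in the library labelled Klf4-floxed Marfan, 18.4 in Marfan and 34.3 in control, a Marfan over control log2 ratio of -0.90 (-1.05 to -0.74). Col4a1 and Col4a2 had ratios of 0.55 (0.50 to 0.59) and 0.55 (0.49 to 0.61). They differed between fibroblast clusters: Col4a1 had a ratio of 0.83 in cluster 2 and 0.14 in cluster 7, and Col4a2 one of 0.91 in cluster 2 and 0.01 in cluster 7. Col4a4 had a ratio of -0.44 (-0.50 to -0.37). Col8a1 had 126 CPM in the library labelled Klf4-floxed Marfan, 109 in Marfan and 101 in control, a ratio of 0.10 (0.03 to 0.18). Single fibroblast clusters had Col8a1 ratios of either sign, as given below. Whether the ratios of Col8a1 or Col4a4 differ between SMC and fibroblasts was not tested.

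In fibroblasts of the library labelled Klf4-floxed Marfan, 1 of 28 collagen genes was at least 1.5-fold higher than in Marfan and 0 were lower, against 2.25% and 1.81% of 10056 genes. As a median, the log2 ratio was 0.12 over these collagen genes and -0.02 over all genes. Against control 5 of 28 were higher and 0 lower, against 3% and 3.06% of 10167 genes, with a median of 0.13 over these collagen genes and -0.05 over all genes. Col12a1, a FACIT chain, had 49.7 CPM in the library labelled Klf4-floxed Marfan, 39.1 in Marfan and 26.6 in control, a log2 ratio over control of 0.90 (0.78 to 1.03). The other 4 were low: Col9a3 had 11.5 CPM in the library labelled Klf4-floxed Marfan, 4.16 in Marfan and 4.24 in control, and Col9a1, Col11a2 and Col23a1 had at most 12.04 CPM. In control Col9a1 had 3.96 CPM and Col11a2 had 3.45. Both, like Col9a3, were thus measured only through their level in the library labelled Klf4-floxed Marfan. At a minimum of 20 CPM, Col12a1 alone was counted as higher. The 5 genes were concentrated in fibroblast cluster 9, led by Prss35, Coch and Vcan, which held 1081 cells of the library labelled Klf4-floxed Marfan, 415 Marfan cells and 371 control cells. Within cluster 9, Col12a1 had 99.1 CPM in the library labelled Klf4-floxed Marfan, 122 in Marfan and 54.2 in control, and Col9a3 had 27.6 CPM in the library labelled Klf4-floxed Marfan, 19.8 in Marfan and 17.4 in control. Within it, the Marfan level of Col12a1 was thus the highest. With the sort fractions clustered apart the Col12a1 ratio of the whole class was 0.09, and with doublets kept it was 0.10.

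Fibroblast clusters differed in collagen level. In cluster 2, led by Hsd11b1, F3 and Gdf10, the collagen share of UMIs was 1.02% in the library labelled Klf4-floxed Marfan, 1.02% in Marfan and 0.883% in control. In cluster 7, led by Pi16 and Clec3b, it was 0.910% in the library labelled Klf4-floxed Marfan, 0.794% in Marfan and 0.784% in control. In cluster 9 it was 0.457% in the library labelled Klf4-floxed Marfan, 0.429% in Marfan and 0.350% in control, and in cluster 18, led by the interferon response genes Cxcl10 and Ifit3, 0.297% in the library labelled Klf4-floxed Marfan, 0.341% in Marfan and 0.275% in control. Single genes were uneven too. Col14a1 had in cluster 7 899 CPM in the library labelled Klf4-floxed Marfan, 780.2 in Marfan and 687 in control, but in cluster 9 79.1 CPM in the library labelled Klf4-floxed Marfan, 67.2 in Marfan and 87.6 in control. Col4a4 had in cluster 2 234 CPM in the library labelled Klf4-floxed Marfan, 192 in Marfan and 224 in control, but in cluster 9 32.2 CPM in the library labelled Klf4-floxed Marfan, 17.6 in Marfan and 39.5 in control. Col8a1 was lowest in control in cluster 9, with 148 CPM in the library labelled Klf4-floxed Marfan, 111 in Marfan and 41.8 in control. In cluster 7 it was lowest in Marfan, with 195 CPM in the library labelled Klf4-floxed Marfan, 145 in Marfan and 198 in control. Its Marfan over control log2 ratio was -0.45 (-0.57 to -0.33) in cluster 7 and -0.34 (-0.53 to -0.15) in cluster 13, led by Igfbp3 and Ptn. In cluster 2 it was 0.24 (0.10 to 0.39).

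The class with valve interstitial or chondrocyte markers was 1 cluster, led by Chad, Comp and Ecrg4, and held the cartilage collagens. Of the 1028 cells of this cluster, 18.7% were lineage-positive, and only its lineage-negative cells are read here. These numbered 253 cells in the library labelled Klf4-floxed Marfan, 325 in Marfan and 258 in control. Col2a1, the chain of collagen II, had 53.4 CPM in the library labelled Klf4-floxed Marfan, 130.04 in Marfan and 29.5 in control, and at most 0.793 CPM in any of the 5 other main classes. Col11a1, a chain of collagen XI, had 84.4 CPM in the library labelled Klf4-floxed Marfan, 111 in Marfan and 95.5 in control. The 3 chains of collagen IX followed Col2a1. Col9a1 had 19.1 CPM in the library labelled Klf4-floxed Marfan, 20.3 in Marfan and 9.96 in control, Col9a2 had 12.98 CPM in the library labelled Klf4-floxed Marfan, 20.8 in Marfan and 6.64 in control, and Col9a3 had 18.4 CPM in the library labelled Klf4-floxed Marfan, 36.2 in Marfan and 7.74 in control. Collagen II and each collagen IX chain were highest in Marfan and lowest in control. Col8a1 had 319 CPM in the library labelled Klf4-floxed Marfan, 229 in Marfan and 249 in control, and Col8a2 116 CPM in the library labelled Klf4-floxed Marfan, 95.4 in Marfan and 148 in control. By the mean over the 3 libraries, further FACIT chains were also highest in this class. Col12a1 had 88.3 CPM in the library labelled Klf4-floxed Marfan, 75.7 in Marfan and 64.2 in control. Col16a1 had 94.1 CPM in the library labelled Klf4-floxed Marfan, 99.5 in Marfan and 105 in control. In the library labelled Klf4-floxed Marfan, Col16a1 was slightly higher in fibroblasts, at 94.9 CPM.

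Against control, 7 of 30 collagen genes were at least 1.5-fold higher in Marfan cells of the valve class and 5 were lower, against 5.61% and 9.74% of all 10184 genes. The median log2 ratio was 0.18 over these collagen genes and -0.05 over all genes. The log2 ratios were 2.14 (1.80 to 2.5) for Col2a1, 2.23 (1.56 to 2.96) for Col9a3 and 1.65 (0.89 to 2.48) for Col9a2. Col9a1 had one of 1.03 (0.37 to 1.72). Col6a3 had 127 CPM in the library labelled Klf4-floxed Marfan, 159 in Marfan and 97.7 in control, a ratio of 0.70 (0.49 to 0.92). Col4a2 had 138 CPM in the library labelled Klf4-floxed Marfan, 179 in Marfan and 115 in control, a ratio of 0.64 (0.44 to 0.84). These genes lay above control in the Marfan library. Among the lower genes, Col4a4 had 42.6 CPM in the library labelled Klf4-floxed Marfan, 30.6 in Marfan and 52.0 in control, a ratio of -0.77 (-1.14 to -0.40). The other lower genes at 20 CPM or more were Col4a5, Col4a6 and Col8a2. Col4a5 had 53.4 CPM in the library labelled Klf4-floxed Marfan, 39.2 in Marfan and 66.4 in control, a ratio of -0.76 (-1.09 to -0.44). Col4a6 had 26.0 CPM in the library labelled Klf4-floxed Marfan, 19.7 in Marfan and 33.9 in control, a ratio of -0.78 (-1.24 to -0.32). Col8a2 had a ratio of -0.64 (-0.85 to -0.43). Of the 6 type IV genes, 3 were thus lower and 1 higher in Marfan cells of this class. Against Marfan, the library labelled Klf4-floxed Marfan had 1 of 30 higher and 3 lower, against 4.26% and 6.37%, with Col2a1 at -1.28 (-1.56 to -1.02), Col9a3 at -0.98 (-1.47 to -0.50) and Col9a2 at -0.68 (-1.29 to -0.09). The median was -0.08 over these collagen genes and -0.04 over all genes. Against control it had 6 of 31 higher and 1 lower, against 4.9% and 11.6%, with Col2a1 at 0.86 (0.45 to 1.27) and a median of 0.15 over these collagen genes and -0.11 over all genes. How much cartilage or valve each pooled dissection held was not tested.

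Endothelial cells had 2 collagens that were highest there, and both encode transmembrane chains. Their number was 344 cells in the library labelled Klf4-floxed Marfan, 367 in Marfan and 181 in control. Col23a1 had 44.5 CPM in the library labelled Klf4-floxed Marfan, 46.2 in Marfan and 38.9 in control, and Col13a1 had 11.9 CPM in the library labelled Klf4-floxed Marfan, 14.1 in Marfan and 17.5 in control. In Marfan against control, 1 of 20 collagen genes was at least 1.5-fold higher and 5 were lower, against 7.32% and 17.4% of all 10569 genes. Their median log2 ratio was -0.29 over these collagen genes and -0.13 over all genes. The higher gene was Col8a1, with 26.9 CPM in the library labelled Klf4-floxed Marfan, 56.4 in Marfan and 30.9 in control, a log2 ratio of 0.87 (0.35 to 1.41). Among the lower genes, Col3a1 had 86.7 CPM in the library labelled Klf4-floxed Marfan, 61.4 in Marfan and 104 in control, and Col6a1 had 14.2 CPM in the library labelled Klf4-floxed Marfan, 6.35 in Marfan and 30.9 in control. Against Marfan, the library labelled Klf4-floxed Marfan had 1 of 20 higher and 2 lower, against 6.59% and 5.22%, with Col8a1 at -1.07 (-1.50 to -0.66) and a median of 0.08 over these collagen genes and 0.03 over all genes. Against control it had 0 higher and 4 lower, against 6.42% and 14.5%, with Col6a1 at -1.12 (-1.81 to -0.44) and a median of -0.21 over these collagen genes and -0.10 over all genes. The 10 fibroblast markers summed in endothelial cells to 2616 CPM in the library labelled Klf4-floxed Marfan, 1620.03 in Marfan and 3068 in control, highest in control, and their part in the lower genes was not tested.

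Macrophages and monocytes had little collagen mRNA, with 1 exception. Among collagen genes of at least 50 CPM in fibroblasts, Col14a1 stood apart. It had 114 CPM in the library labelled Klf4-floxed Marfan, 102 in Marfan and 77.7 in control. As a share of its fibroblast level this was 25.2% in the library labelled Klf4-floxed Marfan, 17.2% in Marfan and 15.3% in control. The other genes lay at 1.16% to 5.91% of theirs in the library labelled Klf4-floxed Marfan, at 1.20% to 4.50% in Marfan and at 0.408% to 4.16% in control. The part of free RNA in these levels was not tested. Col14a1 was uneven within the class. In cluster 10, led by Cd74, Ccl4 and H2-Eb1, it had 158 CPM in the library labelled Klf4-floxed Marfan, 145 in Marfan and 151 in control. In cluster 12, led by F13a1, Folr2 and Lyve1, it had 35.8 CPM in the library labelled Klf4-floxed Marfan, 37.7 in Marfan and 24.5 in control. Thinned to 2000 UMIs, the share of cluster 10 cells with a Col14a1 UMI was 24.1% in the library labelled Klf4-floxed Marfan, 23.7% in Marfan and 23.1% in control. In cluster 12 it was 5.63% in the library labelled Klf4-floxed Marfan, 6.47% in Marfan and 4.11% in control, and in endothelial cells 5.28% in the library labelled Klf4-floxed Marfan, 4.02% in Marfan and 6.21% in control. In fibroblasts it was 43.9% in the library labelled Klf4-floxed Marfan, 54.4% in Marfan and 49.0% in control.

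**Figure D5:**
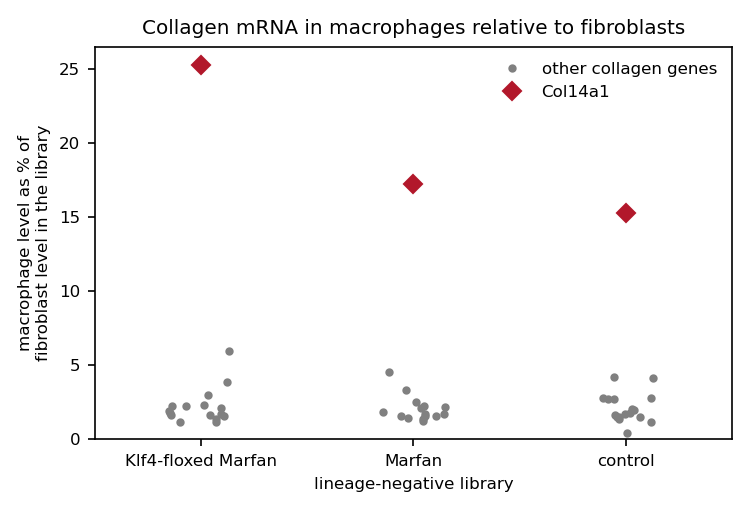
Level in macrophages and monocytes as a percent of the level in fibroblasts of the same lineage-negative library, for collagen genes of at least 50 CPM in fibroblasts. Diamonds are Col14a1, at 15.3% to 25.2%, and grey points the other genes, at most 5.91%, spread sideways only for view.

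Clusters outside the 6 main classes held some of the rarer collagens. In cluster 23, which met the rule for melanocyte markers and was led by the neuroendocrine genes Chgb and Chga with the melanocyte gene Dct, Col28a1 had 40.5 CPM in the library labelled Klf4-floxed Marfan, 205 in Marfan and 49.2 in control. These rest on 17 UMIs in the library labelled Klf4-floxed Marfan, 48 in Marfan and 10 in control. Col28a1 had at most 2.69 CPM in the 6 main classes. Col20a1 had 9.52 CPM in the library labelled Klf4-floxed Marfan, 34.1 in Marfan and 0 in control, in the same cluster. Cluster 19, led by Il11, Cxcl5 and Il6, held 219 lineage-negative and 3 lineage-positive cells, all of the Marfan libraries. Its Col3a1 level was 4960 CPM, and collagen took 1.07% of its UMIs. A cluster of 1 genotype may be that library and not a cell type. Cluster 14, led by Rgs5, Ifitm1 and Notch3, had Col4a1 at 513 CPM in the library labelled Klf4-floxed Marfan, 633 in Marfan and 405 in control. Cluster 6, led by Npy, Prg4 and Meox1, was not small, with 2506 cells. It had Col11a2, a collagen XI chain, at 37.6 CPM in the library labelled Klf4-floxed Marfan, 20.7 in Marfan and 32.4 in control. The valve class, where Col11a2 was highest among the main classes, had 15.4 to 21.6 CPM. Clusters 6, 14 and 19 carry no class name, as their leading genes or sort fraction went against the best-matching markers.

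Genes that process collagen were counted by role in SMC, from a list of 54. In Marfan against control 42 were measured, and 9 were at least 1.5-fold higher, against 3.7% of all genes, and 1 was lower, against 2.62%. The median log2 ratio of the list was 0.24, against -0.07 for all genes. By role, 1 of 13 genes of hydroxylation and glycosylation was higher, 0 of 5 of folding and export, and 1 of 4 of propeptide removal, where 1 was also lower. Among genes of cross-linking and fibril assembly 3 of 10 were higher, among receptors 2 of 7, and among degradation genes 2 of 3. P4ha1, a prolyl hydroxylase, had 91.3 CPM in the library labelled Klf4-floxed Marfan, 103 in Marfan and 65.8 in control. Pcolce, which speeds removal of the C-propeptide, had 80.4 CPM in the library labelled Klf4-floxed Marfan, 75.6 in Marfan and 22.9 in control. Its paralog Pcolce2 had 16.0 CPM in the library labelled Klf4-floxed Marfan, 30.1 in Marfan and 54.0 in control, so these paralogs had opposite signs. Loxl2, which cross-links collagen, had 22.1 CPM in the library labelled Klf4-floxed Marfan, 23.9 in Marfan and 12.4 in control. Fibronectin Fn1, also a marker used for naming modulated SMC, had 865 CPM in the library labelled Klf4-floxed Marfan, 899 in Marfan and 249 in control. Mmp2, a gelatinase, had 53.0 CPM in the library labelled Klf4-floxed Marfan, 43.2 in Marfan and 13.7 in control, and Mrc2, a collagen uptake receptor, had 28.1 CPM in the library labelled Klf4-floxed Marfan, 29.9 in Marfan and 18.2 in control. Between the library labelled Klf4-floxed Marfan and Marfan, 0 of 42 were higher, against 0.409% of all genes, and 1 was lower, Pcolce2, against 0.582%. Against control 9 were higher, against 3.64%, and 1 was lower, against 2.3%. Loxl1 was among the higher, with 143 CPM in the library labelled Klf4-floxed Marfan, 132 in Marfan and 93.3 in control. Within the library labelled Klf4-floxed Marfan, several of these genes were higher in modulated SMC than in the other SMC clusters. Mrc2 had 72.3 against 16.6 CPM, Mmp2 167 against 23.3, Pcolce 226 against 42.6, Fn1 1979 against 575 and Loxl1 258 against 113. P4ha1, with 119 against 84.1 CPM, Loxl2 and Pcolce2 stayed inside 1.5-fold. The part of the modulated share in the class totals was not tested.

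The same list of 54 was counted in fibroblasts. In Marfan against control, 0 of 44 measured genes were at least 1.5-fold higher, against 2.09% of all genes, and 1 was lower, against 2.57%. The lower gene was the collagen receptor gene Itga10, with 23.5 CPM in the library labelled Klf4-floxed Marfan, 14.5 in Marfan and 23.2 in control. In the library labelled Klf4-floxed Marfan against Marfan, 3 were higher, against 2.25% of all genes, and 1 was lower, against 1.81%. Itga1, another collagen receptor gene, had 110.3 CPM in the library labelled Klf4-floxed Marfan, 68.2 in Marfan and 59.2 in control, and P3h2, a prolyl hydroxylase, had 25.3 CPM in the library labelled Klf4-floxed Marfan, 16.1 in Marfan and 11.9 in control. Loxl3, a cross-linking enzyme, had 20.3 CPM in the library labelled Klf4-floxed Marfan, 32.2 in Marfan and 23.1 in control. In the valve class Mmp13, a collagenase of cartilage, had 7.21 CPM in the library labelled Klf4-floxed Marfan, 91.1 in Marfan and 0 in control. These rest on 20 UMIs in the library labelled Klf4-floxed Marfan, 337 in Marfan and 0 in control.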

How the data were processed

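Raw UMI counts per gene and cell were deposited for 6 libraries of the 10x 3′ version 3 chemistry. The authors made these counts with Cell Ranger 6.1.2, per the file headers, against build mm10, per the submitters' processing notes. The sources used here give no further settings. Cells under 1000 UMIs or 500 genes, or above 10% mitochondrial UMIs, were left out. That left 6027 lineage-positive cells of the library labelled Klf4-floxed Marfan, 10929 Marfan cells and 5196 control cells, and 5949 lineage-negative cells of the library labelled Klf4-floxed Marfan, 6701 of Marfan and 4347 of control, after removal of doublets. Doublets were the cells most like simulated doublets, 0.8% per 1000 cells of a library. Cells were clustered on 2000 variable genes without collagens (30 components, 15 neighbours, Leiden at resolution 1, leidenalg 0.10.2). A cluster was named where at least 3 markers were each seen in at least 10% of its cells and its leading genes and sort fraction did not go against the name. These naming rules were set after the data were seen.

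Counts were summed per class and library and given as CPM with exact 95% Poisson intervals, and ratios with exact conditional binomial intervals (numpy 2.4.6, scipy 1.17.1). A gene was measured at 5 CPM or more in either library and counted as higher or lower from 1.5-fold. A collagen gene is given in full at 20 CPM and 1.5-fold in a comparison, at 1000 CPM in its highest class, or where it is highest outside fibroblasts. Genes of collagen processing are named at 20 CPM and 1.5-fold, up to 4 per role. The members and lists were chosen with earlier results of these data known. With 1 library per group no test across libraries was possible. The ratio and its interval were tested on simulated data. Other totals, cell filters, clusterings and CPM minimums were tried as alternatives.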

Additional observations from a re-analysis of the deposited data

Results flagged for a closer look

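Col4a4 was singled out because its Marfan over control ratio had opposite signs in different classes. The log2 ratio was 0.79 in SMC and -0.77 in the valve interstitial or chondrocyte class, each from 1 library per genotype. By the levels given above, the SMC ratio was positive but inside 1.5-fold in the clusters other than the modulated ones. In clusters 1 and 4 Marfan and control were close, while in cluster 3 Marfan lay above control. The difference between these classes was not tested.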

How the results depend on the processing

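No paired analysis was possible because each group is 1 library, so the groups compared share only 1 replicate number and a block for it leaves no pair to compare. Leaving out a replicate was likewise not possible. The alternatives that leave out 1 SMC cluster were chosen after seeing the data. Over all alternatives 274 summary values stayed close to their main value, 41 moved and 0 reversed. Of the values of single genes, 870 stayed close and 368 moved.

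Between the library labelled Klf4-floxed Marfan and Marfan, the count of SMC collagen genes at least 1.5-fold higher, 1 in the main analysis, was 0 at a mitochondrial limit of 5%, in the whole library, at 20 CPM and without cluster 4, and 2 at 1 CPM. The lower count was 1 at 1 CPM. For Marfan against control the lower count, 1 in the main analysis, was 2 without mitochondrial and ribosomal protein genes, 2 with each cell counted alike and 2 in the whole library, 3 with fractions clustered apart and at 1 CPM, and 0 at 20 CPM. For the library labelled Klf4-floxed Marfan against control it was 1, not 0, without mitochondrial and ribosomal protein genes, with collagens in the clustering, with fractions apart and at 1 CPM. The median log2 ratio of SMC collagens kept its sign for Marfan against control, at 0.23 to 0.36. The median of all genes reached -0.12 without mitochondrial and ribosomal protein genes.

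In fibroblasts of the library labelled Klf4-floxed Marfan against Marfan, the higher count of 1 was 3 with each cell counted alike, 2 with collagens in the clustering, with doublets kept, with fractions apart and at 1 CPM, 4 in the whole library and 0 at 20 CPM, and the lower count was 2 in the whole library and 1 at 1 CPM. For Marfan against control the higher count of 0 was 2 under median-of-ratios scaling and with doublets kept, and 1 with each cell alike, collagens in the clustering, the whole library and at 1 CPM. The lower count of 1 was 2 with each cell alike and at 1 CPM, and 4 with fractions apart and in the whole library. Against control the 5 higher genes of the library labelled Klf4-floxed Marfan were 2 with doublets kept, and 1 with fractions apart, in the whole library and at 20 CPM. In control modulated SMC the 2 lower genes were 1 with collagens in the clustering and with fractions apart. With doublets kept no cluster was named modulated SMC, and a cluster of 2412 cells led by Timp4, Nrgn and Mia was named SMC. The higher 1 CPM counts come from more genes entering. The named classes also changed between clusterings. With doublets kept, a cluster of 3915 cells led by Itih5, Npy, Meox1 and Prss35 carried no class name. With collagens in the clustering, a cluster of 2696 cells led by Tnnt2 and Psd carried none. The cause of the other moves was not tested, nor was the part of these changes in them.

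Among single genes in Marfan against control SMC, Col1a1 fell under 1.5-fold at 2000 UMIs (0.51), 4000 UMIs (0.47), a 5% mitochondrial limit (0.57), without mitochondrial and ribosomal protein genes (0.55) and with fractions apart (0.43), and Col15a1 with collagens in the clustering (0.58) and fractions apart (0.52). Col4a4 was 0.54 in the whole library, Col14a1 was -0.60 with fractions apart, and Col8a1, Col16a1 and Col4a3 stayed past 1.5-fold under all of these alternatives. By the levels given above for the SMC clusters other than the modulated ones, Col16a1 and Col4a3 were inside 1.5-fold there. Col8a1 was past it there too. In Marfan modulated SMC, Col1a1 was 0.46 and Col5a2 0.53 with each cell alike. Depth limits the rare classes most, since 18 control mesothelial cells and 91 control modulated SMC carry their values.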
